A study of Mus musculus with 378 samples.

Results

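Transcripts of the NF-kB system were followed in T cells that had entered B16F10 tumours, which are transplanted mouse melanomas. The genes are 9 of the 23420 in the deposited expression table. They are the 5 subunits Nfkb1, Nfkb2, Rel, Rela and Relb, and 4 inhibitors, Nfkbia, Nfkbid, Nfkbiz and Tnfaip3. They were picked by name with earlier results of these data known, in which Nfkbia and Nfkbid stood out between genotypes. Their differences between genotypes are therefore descriptions, and so are those between cell types, which use the same cells.

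NF-kB proteins are dimers of the 5 subunits, which share a Rel homology domain that binds DNA at kappa B sites. In a resting T cell most dimers are held in the cytoplasm by IkB proteins such as the product of Nfkbia, and signals from the T cell receptor, costimulators or cytokine receptors free them by having that IkB destroyed. NF-kB then switches on the genes of several of its own inhibitors, including Nfkbia and Tnfaip3, so that in many cells the RNA of these feedback genes follows recent signalling while the RNA of the subunits moves less.

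The libraries came from C57BL/6 mice bearing B16F10 tumours, either wild type (WT) or labelled as knockout (KO) for Il27ra, which encodes a receptor chain for the cytokine IL-27. Titles name 4 groups: WT CD8, then KO CD8, then WT CD4, and last KO CD4. Values for all 4 are given below in this group order. They hold 94, 92, 94 and 94 single-cell libraries and 1 library of a cell population each, while the protocol speaks of CD8+ T cells only. Libraries with at least 1000 genes above 0 were kept, which left 67, 74, 79 and 78 of the 374 single cells. No label names the donor mouse, an age or a tumour size, so each group is 1 sample. Its cells are not replicates, SDs given here are over cells, and no test between groups was possible. The WT CD4 titles carry p3 and those of the other groups p2. Genotype and animal cannot be told apart, nor can that p3 mark from genotype in CD4 cells or from cell type in WT. Each group's titles also carry a code word of their own: cat, rabbit, dog and bird, in group order. These words were not interpreted, and they cannot be told apart from genotype or cell type in any comparison of groups.

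Median genes detected per kept cell ran from 2307 (WT CD4) to 2919 (WT CD8), and median reads, estimated from the steps between low values, from 228646 (WT CD4) to 340313 (KO CD8). Cd4 was above 0 in 79.8% and 89.7% of CD4 cells and in at most 8.96% of CD8 cells, and Cd8a in 83.6% and 94.6% of CD8 cells and in at most 7.69% of CD4 cells. Cd8b1, which encodes the other CD8 chain, was detected more widely: 82.1% and 81.1% of CD8 cells had it, as did 24.05% of WT and 33.3% of KO CD4 cells. Il27ra was above 0 in 38.8%, 52.7%, 48.1% and 52.6% of cells, in group order. Its log2 level in the population libraries was 5.60 and 6.52 in CD8 (WT and KO) and 8.005 and 6.59 in CD4. Of these 4 pairs of values, Il27ra was lower beside the label KO in the CD4 population libraries only, and which part of the gene was removed was not given in the sources used here, so KO means the library label throughout. Among kept cells B2m, a gene of nearly every cell, was at 0 in 8 WT CD8 and 6 WT CD4 cells and in 0 KO cells, and all of Cd3d, Cd3e and Cd3g were at 0 in 8, 3, 3 and 1 cells, in group order. Markers of other cell types, 3 or more per cell, were found in 8, 10, 12 and 8 kept cells, in group order. The highest summed FPKM of 5 class II genes in a single cell was 206112, 133316, 1740 and 158420, in the same order. The population libraries hold RNA of other cells. Summed FPKM of 7 melanoma genes was 14658 in WT CD8 and 37.5 to 85.7 in the others, and that of 5 class II genes was 158.1, 20863, 7507 and 5225 in group order. Summed FPKM was 907 to 3875 for 12 macrophage genes, 88.4 to 1241 for 7 dendritic cell genes and 17.9 to 30.2 for 5 B cell genes. In such bulk libraries fewer cells of a type and less RNA per cell cannot be told apart.

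Promoters of the feedback genes are shown first, because kappa B sites are the letters through which NF-kB reads its targets. RefSeq promoters on GRCm38.p6 were found for 6 of the 9 genes, Nfkb2, Rel, Rela, Nfkbia, Nfkbid and Tnfaip3, and were not matched for Nfkb1, Relb and Nfkbiz. The windows are the 250 bases before a start site, 5′ to 3′ on the gene's strand. Capitals mark each match of the kappa B consensus on either strand. Nfkbia has 1 window (chr12:55492648-55492897, minus strand), Nfkbid is shown by the second of its 3 (chr7:30422156-30422405, plus strand) and Tnfaip3 by the first of its 2 (chr10:19015411-19015660, minus strand), since the remaining Nfkbid and Tnfaip3 windows hold 0 matches.
Nfkbia: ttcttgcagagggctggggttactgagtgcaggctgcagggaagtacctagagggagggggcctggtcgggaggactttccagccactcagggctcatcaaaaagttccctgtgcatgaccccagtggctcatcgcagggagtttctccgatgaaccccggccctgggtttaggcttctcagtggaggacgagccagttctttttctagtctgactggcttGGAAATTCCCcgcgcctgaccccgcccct
Nfkbid: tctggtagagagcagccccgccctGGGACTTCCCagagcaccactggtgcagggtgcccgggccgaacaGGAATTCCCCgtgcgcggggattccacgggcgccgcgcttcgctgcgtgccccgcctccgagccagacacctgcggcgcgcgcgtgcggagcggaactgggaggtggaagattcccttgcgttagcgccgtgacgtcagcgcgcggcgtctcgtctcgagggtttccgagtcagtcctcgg
Tnfaip3: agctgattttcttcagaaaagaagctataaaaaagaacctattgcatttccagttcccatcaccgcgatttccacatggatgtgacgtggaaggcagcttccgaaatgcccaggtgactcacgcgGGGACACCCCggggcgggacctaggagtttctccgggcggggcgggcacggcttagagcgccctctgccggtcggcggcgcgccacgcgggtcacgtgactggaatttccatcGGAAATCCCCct

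Nfkbia has 1 match, starting 29 bases before the start site. Nfkbid has 2 matches, both in the distal part of its window, and Tnfaip3 has 2, the nearer starting 12 bases before the start. Among the subunits, Nfkb2 holds matches in each of its 3 windows, 5 in all with 2 of them overlapping, and Rel holds 2 overlapping matches on opposite strands. For comparison with the inhibitors, these are 30-base stretches around a match in windows 2 and 3 of Nfkb2 (chr19:46305449-46305478 and chr19:46305695-46305724, plus strand) and in the Rel window (chr11:23771042-23771071, minus strand).
Nfkb2, window 2: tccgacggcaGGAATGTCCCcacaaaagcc
Nfkb2, window 3: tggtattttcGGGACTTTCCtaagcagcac
Rel: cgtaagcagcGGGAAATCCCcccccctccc

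Rela, whose product p65 is the main activating subunit of the canonical pathway, has 0 matches in its window. In all, 5 of the 6 genes hold at least 1 match, against 8.23% of 27025 genes and 7.25% of 32851 windows of the same length in the RefSeq table. A match is a run of letters and not a measured binding site.

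Expression is given as FPKM, fragments per length of transcript and per sequencing depth, as scaled by the authors across libraries. It is per length, so genes can be set side by side. Mean levels are means of log2(FPKM + 1) over the kept cells of a group, a scale on which a cell without a read counts as 0. In the libraries of these cells a 0 can also be RNA that was not captured.

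**Figure D1:**
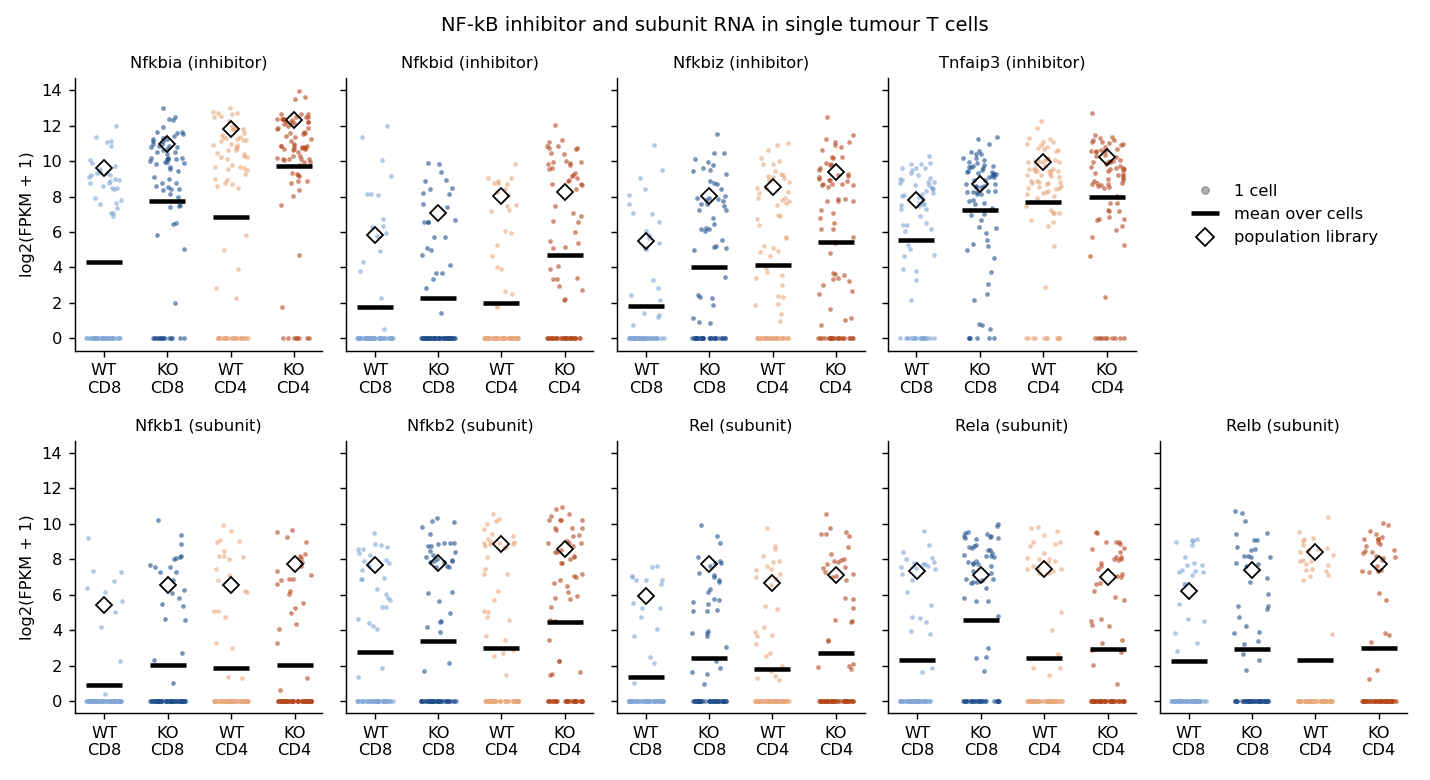
Level of each of the 4 inhibitors (top) and 5 subunits (bottom) as log2(FPKM + 1) on the y axis, by group on the x axis. Points are the kept cells (67, 74, 79 and 78), bars the mean over cells and diamonds the 1 population library of a group. Nfkbia and Tnfaip3 are the highest genes in every group, and each gene has cells at 0 in all groups.

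Nfkbia encodes IkB-alpha, the inhibitor that NF-kB induces to end its own activity (chromosome 12, 55489410 to 55492647 on GRCm38). It ran from 0 in each group to maxima of 4012, 8333, 8100 and 16043 FPKM, with medians of 0, 868, 739 and 1796. The 4 distributions overlap at both ends, and the WT CD8 cells stand out by their median at 0. Nfkbia was above 0 in 32 of 67 CD8 cells from WT (47.8%, exact Clopper-Pearson 95% interval 35.4 to 60.3) and 59 of 74 from KO (79.7%, 68.8 to 88.2). Among CD4 cells it was above 0 in 53 of 79 from WT (67.1%, 55.6 to 77.3) and 70 of 78 from KO (89.7%, 80.8 to 95.5). These intervals cover counting error only, since the method marks no molecules and no second animal is known. Its mean log2 level was 4.31 ± 4.63 (SD, n = 67 cells), 7.78 ± 4.33 (n = 74), 6.82 ± 5.19 (n = 79) and 9.72 ± 3.77 (n = 78). KO minus WT came to 3.47 in CD8 and 2.90 in CD4 cells. Mean FPKM was 380 in WT CD8 and 1259 in KO CD8, 3.32-fold, and 1534 in WT CD4 and 2755 in KO CD4, 1.80-fold. The mean log2 difference is larger than these folds, as cells going from 0 to any value count heavily in it. In the population libraries Nfkbia was 790, 1983, 3669 and 5213 FPKM, which is the order of the mean FPKM over cells.

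Tnfaip3 encodes A20, a ubiquitin-editing enzyme that shuts off signals upstream of the IkB kinase (chromosome 10, 19000910 to 19015657). It was found in more cells than any of the other 8 genes in WT CD8, KO CD8 and WT CD4, at 73.1%, 91.9% and 84.8%, and in 87.2% of KO CD4 cells, second there to Nfkbia. Median FPKM was 156.4, 342.4, 465 and 580, with cells at 0 in all groups and maxima of 1242, 2638, 4900 and 6654 FPKM. Each group's median lies well inside the range of the others. Mean log2 levels were 5.57 ± 3.77, 7.26 ± 3.28, 7.72 ± 3.60 and 7.95 ± 3.53 (SD over the 67, 74, 79 and 78 cells). KO minus WT was 1.69 in CD8 and 0.23 in CD4 cells, and the CD4 value was -0.38 without the cells that lacked B2m or all Cd3 genes.

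Nfkbiz encodes IkB-zeta, a nuclear IkB that can raise or lower NF-kB target genes (chromosome 16, 55811375 to 55838899). Its medians were 0, 7.3, 10.8 and 80.6 FPKM, with all groups starting at 0 and maxima of 1891, 2910, 2090 and 5666. Shares of cells above 0 were 34.3% (95% interval 23.2 to 46.9), 59.5% (47.4 to 70.7), 60.8% (49.1 to 71.6) and 73.1% (61.8 to 82.5). WT CD8 is thus the group in which it was found least. KO minus WT was 2.21 in CD8 and 1.28 in CD4 cells, and the population libraries differed by 2.52 and 0.83.

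Nfkbid encodes IkB-NS, another nuclear IkB, known for its part in the development of regulatory T cells and in cytokine genes (chromosome 7, 30421732 to 30428746). It was above 0 in 28.4% (18.01 to 40.7), 35.1% (24.4 to 47.1), 30.4% (20.5 to 41.8) and 60.3% (48.5 to 71.2) of cells. Only the KO CD4 group had a median above 0, at 14.9 FPKM, and maxima were 3973, 952, 921 and 4215 FPKM in group order. KO minus WT was 2.73 in CD4 cells, where mean FPKM was 6.08-fold higher (70.2 in WT, 427 in KO). In CD8 cells the mean log2 difference was 0.50 while mean FPKM was lower in KO (78.2) than in WT (142.7). A single WT CD8 cell carries much of that mean, which was 84.6 without the highest WT cell and 66.3 in KO without its highest. The WT and KO population libraries were at 55.8 and 132.9 FPKM in CD8, and at 265.5 and 304.4 in CD4.

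The subunits were below Nfkbia and Tnfaip3 in every group, and some of them were above Nfkbid or Nfkbiz in every group but KO CD4. Rela, the p65 gene, was above 0 in 35.8%, 60.8%, 34.2% and 44.9% of cells, with 95% intervals of 24.5 to 48.5, 48.8 to 71.96, 23.9 to 45.7 and 33.6 to 56.6. Its median was 68.5 FPKM in KO CD8 and 0 in the other groups, and its maxima of 762, 1035, 910 and 748 FPKM lay close together. KO minus WT was 2.24 in CD8 single cells, but -0.20 in the population libraries (157.8 FPKM in WT and 137.4 in KO), so the kinds of library point in opposite directions.

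Nfkb2 encodes p100, the precursor of p52 in the alternative pathway, and itself an IkB-like inhibitor before it is cut. It was above 0 in 41.8%, 45.95%, 41.8% and 60.3% of cells, and its median was above 0 in KO CD4 only (22.2 FPKM). KO minus WT was 0.63 in CD8 and 1.46 in CD4 single cells, and 0.11 and -0.31 in the population libraries. The gene overlaps Psd on the opposite strand, and without strand the reads of both cannot be told apart. Psd, named here for that overlap and with its values seen, was at a mean of 1.81, 6.48, 2.94 and 6.01 FPKM, against 78.6, 155.5, 162.1 and 282.1 for Nfkb2.

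Rel encodes c-Rel, a subunit that T cells use for cytokine genes and for regulatory T cell development. It was above 0 in 25.4%, 43.2%, 34.2% and 41.03% of cells in group order, with medians of 0 throughout and maxima of 193.3, 964, 884 and 1513 FPKM. Relb, the partner of p52, was above 0 in 32.8%, 43.2%, 29.1% and 41.03%, again with medians of 0. Nfkb1, which encodes p105 and p50, was found least, in 16.4%, 31.1%, 27.8% and 32.1% of cells. The 95% intervals of WT and KO overlap for Rel, Relb, Nfkb1 and also Nfkb2 in both cell types. They cover counting error within 1 sample per group, so their overlap does not compare the genotypes. KO minus WT in CD8 was 1.07 for Rel, 0.67 for Relb and 1.11 for Nfkb1, and in CD4 it was 0.88, 0.66 and 0.22.

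By mean log2 level, Tnfaip3 and Nfkbia held the first 2 places in each group, with Tnfaip3 first in both WT groups and Nfkbia first in both KO groups. Nfkb1 was last in WT CD8, KO CD8 and KO CD4, and Rel was last in WT CD4 at 1.81, next to Nfkb1 at 1.84. Neighbours in these orders differ by less than the SD over cells of either gene, with SDs of 2.27 to 5.19 over the 9 genes, and the spread over samples is unknown. In the population libraries Nfkbia was first and Tnfaip3 second in all 4.

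Set side by side between genotypes, 3 of 4 inhibitors and 3 of 5 subunits were higher in KO CD8 cells by at least 1 on the log2 scale, a 2-fold step used for description. Of the 9031 genes with a value in 10% or more of the cells of one group, a filter that all 9 members passed, 5.94% took such a step up and 3.82% a step down. As the members were chosen with this comparison known, nothing is read from that contrast of shares. The inhibitor median was 1.95 (range 0.50 to 3.47) and the subunit median 1.07 (0.63 to 2.24), with -0.08 for all genes tested. All 9 were above 0. In the population libraries all 4 inhibitors were higher in KO (0.88 to 2.52, median 1.28), and 4 of 5 subunits (-0.20 to 1.75, median 1.14), where 20.5% of 13192 genes were higher by at least 1 and 20.5% lower. These 2 libraries differ in RNA of other cells. Summed FPKM was 14658 in WT and 45.9 in KO for melanoma genes, and 158.1 and 20863 for class II genes. The part of that RNA in the population differences was not tested.

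The level of housekeeping genes moved with the CD8 comparison. The median of 16 of them was 1.58 higher in KO single cells, more than that of the subunits, and 0.08 in the population libraries. Without the cells lacking B2m or all Cd3 genes it was 0.06, while the inhibitor median was 1.56 and the subunit median 0.70. In that set Nfkbia was 2.70, Nfkbiz 2.07, Rela 1.79 and Tnfaip3 1.06 higher, while Nfkbid was 0.15, Nfkb2 0.23 and Relb 0.20. The number of subunits past 1 went from 3 to 1, and that of inhibitors stayed at 3. When kept cells were instead matched on genes detected, the housekeeping median was still 1.15, beside 1.49 for inhibitors and 1.12 for subunits. With both steps the 3 medians were 0.2, 1.62 and 1.17.

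In CD4 cells 3 of 4 inhibitors and 1 of 5 subunits were higher in KO by at least 1, against 7.73% of 8176 genes (0.342% lower). The inhibitor median was 2.00 (0.23 to 2.90) and the subunit median 0.66 (0.22 to 1.46), with 0.17 for all genes tested and 0.87 for the housekeeping list. Without the cells lacking B2m or all Cd3 genes the 3 medians for inhibitors, subunits and housekeeping genes were 1.69, 0.48 and 0.38. Matched on genes detected they were 2.1, 0.64 and 0.61. The population libraries of CD4 cells showed far smaller inhibitor differences, 0.20 to 0.83 with a median of 0.40 and 0 of 4 past 1, where 16.6% of 12624 genes were (21.9% lower). Their subunit median was -0.31, with Nfkb1 at 1.17 and Relb at -0.65. The part of other cells' RNA in these population values was not tested.

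**Figure D2:**
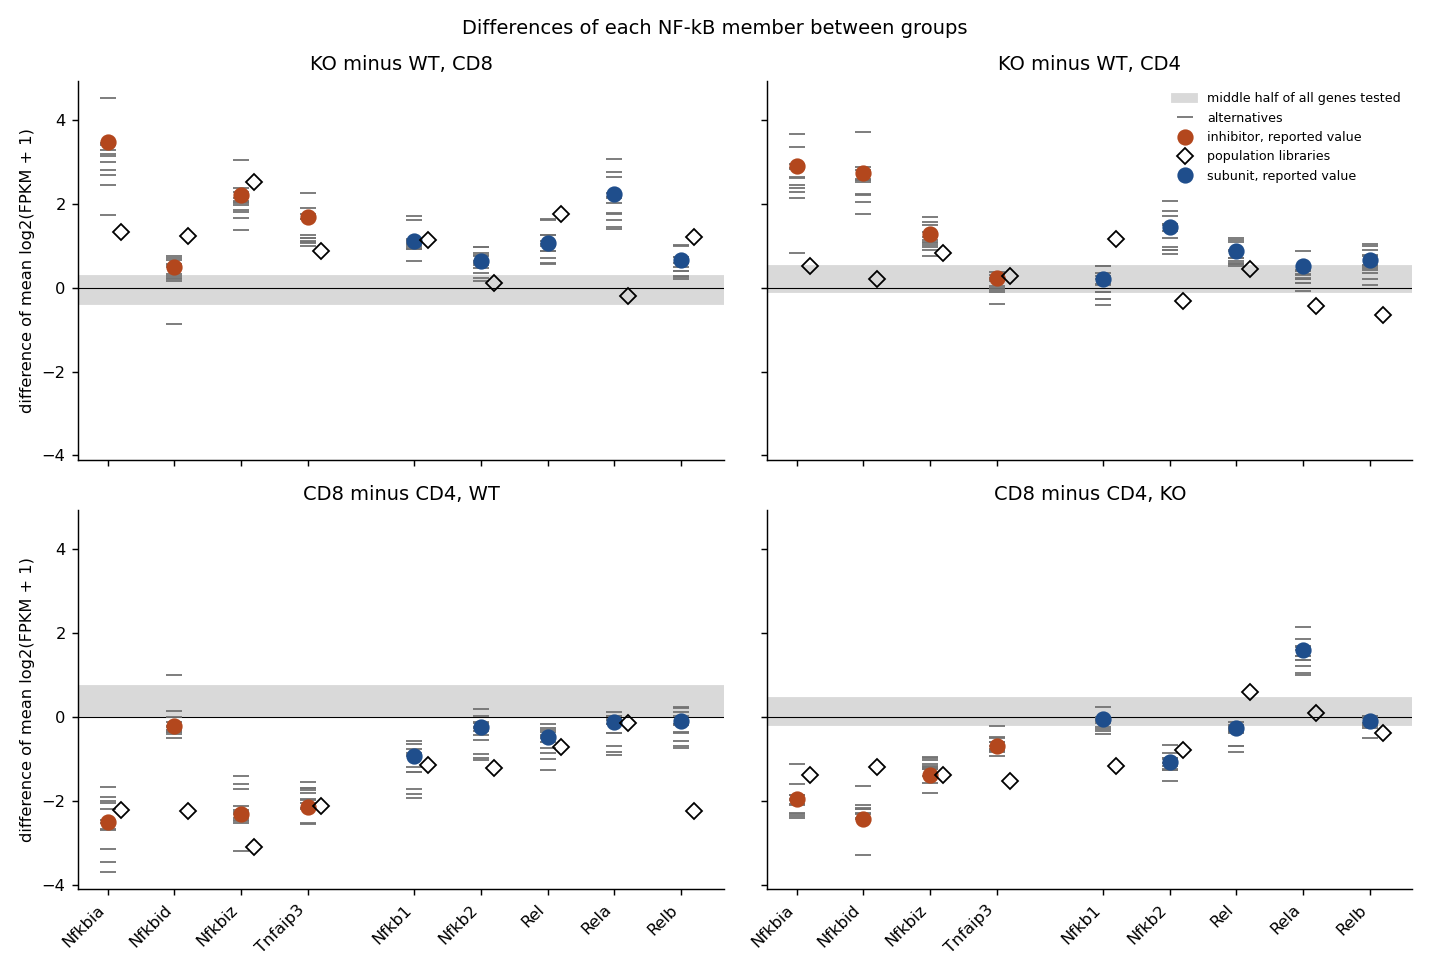
Difference of mean log2(FPKM + 1) on the y axis for each gene on the x axis, in 4 comparisons of groups. Filled points are the reported values (orange inhibitors, blue subunits), dashes the alternative settings, diamonds the population libraries and the grey band the middle 50% of all genes tested. Nfkbia lies above the band in both KO minus WT panels (3.47 and 2.90) and below it in both CD8 minus CD4 panels (-2.51 and -1.95).

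The differences between genotypes can be split into cells with RNA and the level in those cells. For Nfkbia the share above 0 was 31.97 percentage points higher in KO CD8 and 22.7 in KO CD4. Its mean log2 level over the cells above 0 was higher by 0.73 and 0.67. For Nfkbid in CD4 the share was 29.9 points higher and the level 1.3 higher. Tnfaip3 in CD8 was 18.8 points higher in share and 0.28 in level. Shares after thinning each cell to 100000 estimated reads differed by 31.6 points for Nfkbia in CD8, 22.8 in CD4, 29.7 for Nfkbid in CD4 and 15.8 for Tnfaip3 in CD8. Thinning left out 1 cell in each CD8 group and matched reads only, not genes detected.

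**Figure D3:**
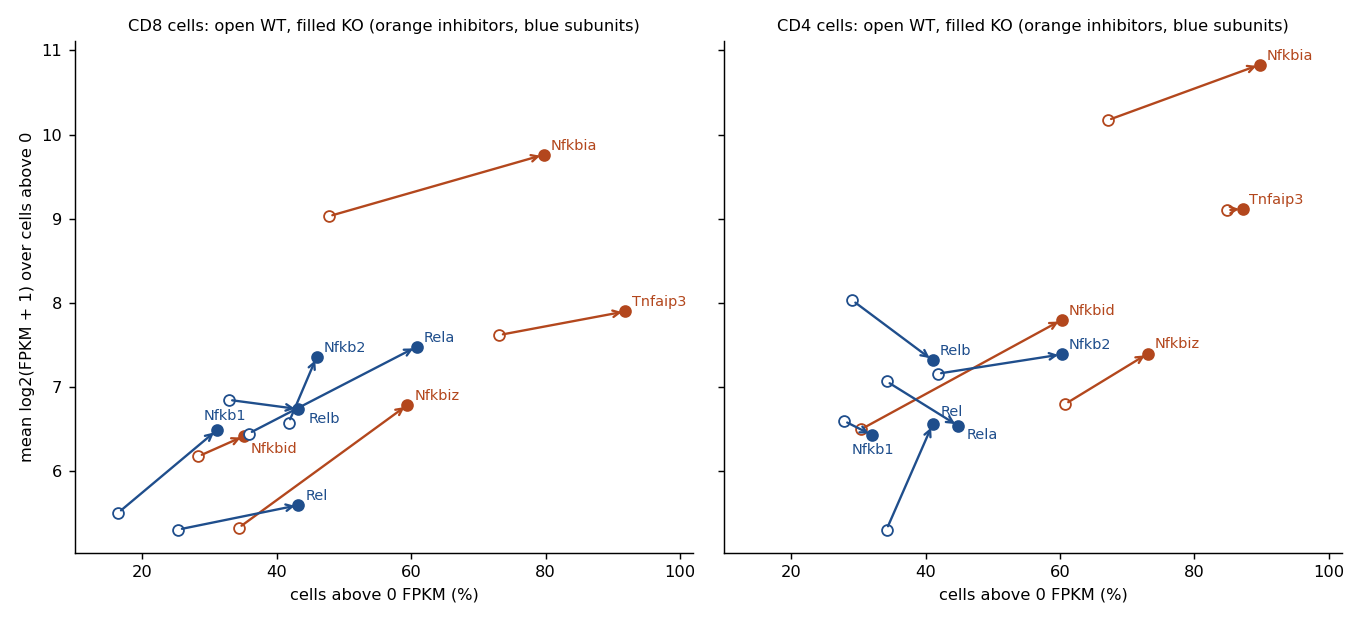
Share of cells above 0 FPKM in percent (x axis) and mean log2(FPKM + 1) over those cells (y axis) for each gene, in CD8 (left) and CD4 cells (right). An arrow runs from WT (open) to KO (filled), orange for inhibitors and blue for subunits. All 9 arrows point right in both panels, while several subunits in CD4 cells point down, such as Relb.

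Between the cell types, Nfkbia, Nfkbiz and Tnfaip3 had lower mean log2 levels in CD8 than in CD4 cells in both genotypes, and Nfkbid was lower by at least 1 in KO. These comparisons use the same 4 groups as those above and are not separate evidence. CD8 minus CD4 in WT was -2.51 for Nfkbia, -2.30 for Nfkbiz, -2.15 for Tnfaip3 and -0.22 for Nfkbid. The single-cell Nfkbid value in WT changed sign with some settings, to 0.01 without the cells lacking B2m or all Cd3 genes, 0.14 without cells with both Cd4 and a CD8 chain, and 1.01 as log2 of mean FPKM (142.7 FPKM in CD8 and 70.2 in CD4). In KO it was -1.95, -1.37, -0.69 and -2.45 in that order. So 3 of 4 were lower by at least 1 in each genotype, where 2.08% of 8961 and 2.79% of 8473 genes were (14.1% and 7.7% higher). In the population libraries all 4 were lower by at least 1 in both (medians -2.22 and -1.39), beside 23.5% of 13314 and 16.5% of 12576 genes (24.5% and 22.5% higher). The subunit medians over single cells were -0.24 in WT and -0.09 in KO, and the WT median was -0.89 when cells were matched on genes detected. In single cells Rela (1.61) and Nfkb2 (-1.07) in KO passed 1, and 0 of 5 did so in WT. The subunit medians of the population libraries were -1.14 and -0.37, with Relb (-2.23), Nfkb2 (-1.21) and Nfkb1 (-1.14) lower by at least 1 in WT and Nfkb1 (-1.17) in KO. The mark p3 stands in the WT CD4 titles alone, so in WT it cannot be told apart from the cell type.

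An index per cell, the mean log2 level of the 4 inhibitors minus that of the 5 subunits, sets both roles against each other in the same library. In CD8 cells it was 1.45 ± 2.11 in WT (SD, n = 67 cells) and 2.28 ± 2.85 in KO (n = 74), and in CD4 cells 2.88 ± 2.76 in WT (n = 79) and 3.92 ± 2.78 in KO (n = 78). The lowest cells of the groups were at -2.81, -3.89, -3.56 and -3.24 and the highest at 6.45, 9.01, 8.63 and 11.5, so the groups overlap over most of their range. KO minus WT was 0.82 in CD8 and 1.04 in CD4 cells, less than 1 SD in each. The population libraries had the same order at 0.68, 1.38, 2.01 and 2.42. Taken as log2 of mean FPKM, the CD8 difference was -0.51, with Nfkbid lower in KO on that scale, and CD8 minus CD4 in WT was 0.01 in place of -1.43.

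At least 3 of the 4 inhibitors were above 0 in 22 of 67 WT and 43 of 74 KO cells of the CD8 type (32.8%, 95% interval 21.9 to 45.4, and 58.1%, 46.1 to 69.5). Among CD4 cells they were in 41 of 79 WT and 59 of 78 KO cells (51.9%, 40.4 to 63.3, and 75.6%, 64.6 to 84.7). All 4 were found together in 5, 17, 13 and 33 cells. None was found in 11, 4, 7 and 0 cells, and 0 of 78 allows a share of up to 3.85%. None of the 9 genes was above 0 in 10, 2, 5 and 0 cells.

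**Figure D4:**
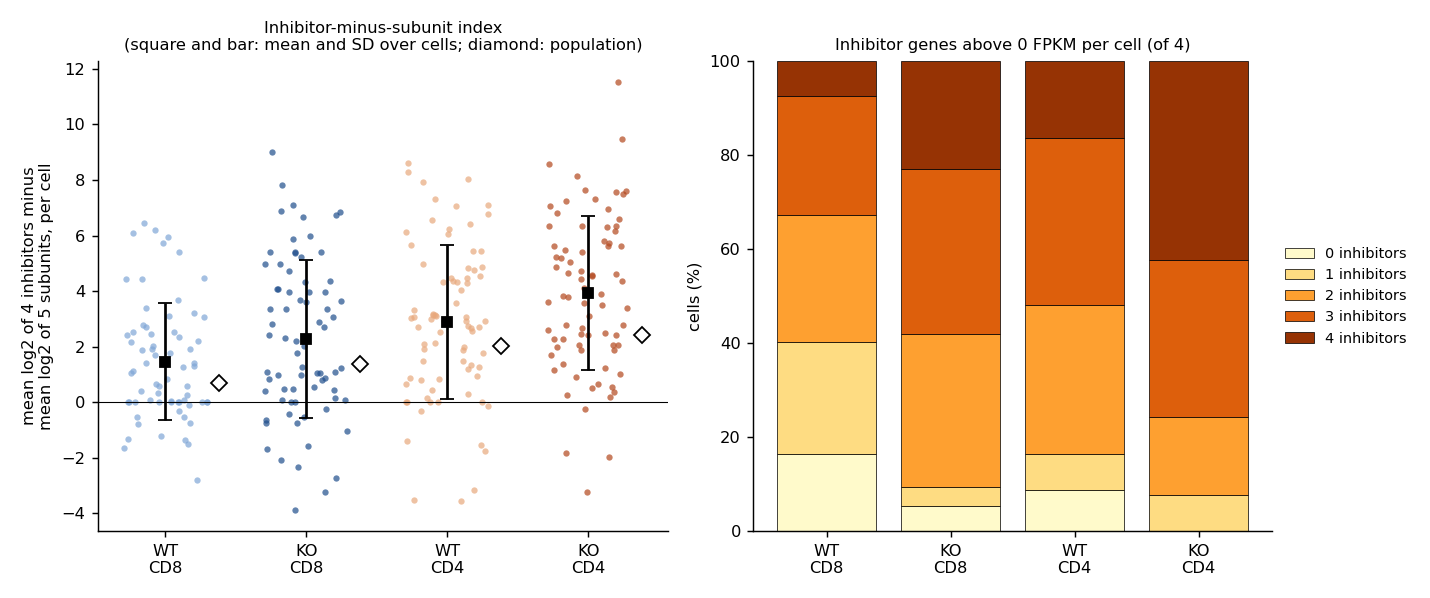
Left, the inhibitor-minus-subunit index per cell (log2 units, y axis) by group, with points for cells, squares and bars for mean and SD, and diamonds for population libraries. Right, percent of cells in each group by how many of the 4 inhibitors were above 0. The group means run from 1.45 (WT CD8) to 3.92 (KO CD4) with wide overlap.

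Foxp3, the factor that defines regulatory T cells, was looked at after its values were seen, and its RNA was above 0 in 30 of 79 WT and 39 of 78 KO CD4 cells. In CD4 cells with Foxp3 at 0, KO minus WT was 4.28 for Nfkbia, 3.44 for Nfkbid, 2.15 for Tnfaip3 and 2.01 for Nfkbiz, and in those with Foxp3 above 0 it was 0.39, 1.82, -2.06 and 0.10. The housekeeping median was 1.2 higher in KO among cells with Foxp3 at 0 and 0.44 among the others. Without the cells lacking B2m or all Cd3 genes it was 0.21 and 0.44, with Nfkbia at 3.59 and 0.38 and Tnfaip3 at 1.22 and -2.05. Matched on genes detected, the housekeeping median was 0.75 and 0.54. A cell with Foxp3 at 0 may hold Foxp3 RNA that was not captured, and the difference between the classes was not tested.

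**Figure D5:**
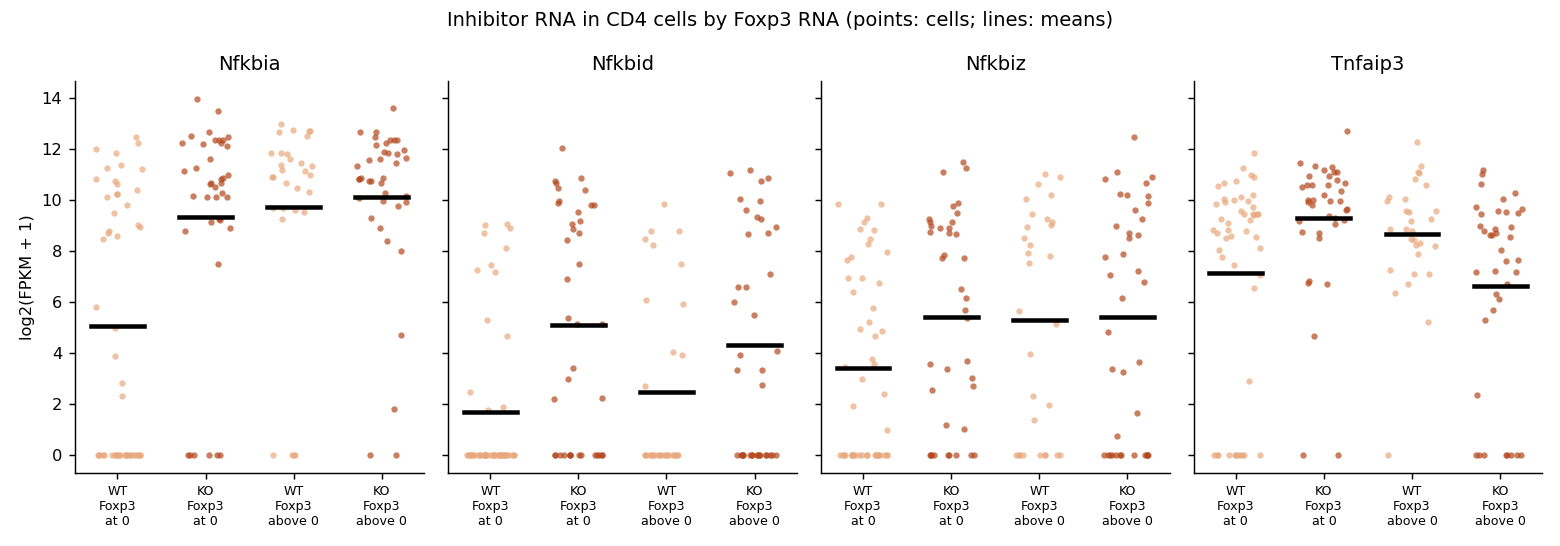
Level of the 4 inhibitors as log2(FPKM + 1) (y axis) in CD4 cells split by genotype and by Foxp3 RNA (x axis), with points for cells and lines for means. For Nfkbia the WT cells with Foxp3 at 0 have a mean of 5.04, beside 9.33 to 10.1 in the other classes, and for Tnfaip3 the KO cells with Foxp3 above 0 have the lowest mean, 6.62.

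Other genes of the pathway came from 4 lists. Over all genes tested, 5.94% were higher and 3.82% lower in KO by at least 1 in CD8 cells. In CD4 cells these shares were 7.73% and 0.342%. The counts of the first 2 lists, given here, are few, and nothing is read from them beside those shares. Of 17 further inhibitors with enough cells in CD8, such as Nfkbib, 1 was higher in KO by at least 1, Tax1bp1 (1.42), which encodes a partner of A20, and 0 were lower. In CD4 cells 0 of 16 passed 1 in either direction, the highest being Commd1 (0.90) and Nfkbib (0.89) and the lowest Nkiras2 (-0.55). Of 32 kinases, adaptors and receptors upstream of NF-kB, 1 was higher and 1 lower in KO CD8, Prkcq (1.21), a kinase of the T cell receptor path, and Tnfrsf1b (-1.04), a TNF receptor. In CD4 cells 3 of 32 were higher, among them Ube2d3 (1.86) and Tnfrsf1b (1.28), and 0 were lower. The CD4 population libraries had these 2 genes the other way, at -0.25 and -1.10, with a list median of -0.18. Medians of both lists in single cells were between -0.04 and 0.46, beside -0.08 (CD8) and 0.17 (CD4) for all genes tested. The 4 inhibitors were chosen with results known, so their medians are no measure for these lists.

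In single cells, genes that NF-kB is known to switch on gave other counts in CD8 than in CD4, a difference that was not tested. In CD8 cells 4 of 26 were higher in KO by at least 1, including Tnfaip8 (1.71) and the stress gene Gadd45b (1.35), and 4 were lower, including the chemokines Ccl4 (-2.36) and Ccl3 (-1.88), beside 5.94% and 3.82% of all genes tested. Ccl4 in the population libraries was at 0.39 and Ccl3 at -0.06, and the list median in CD8 was 0.90. In CD4 cells 14 of 25 were higher (7.73% of all genes), led by Gadd45b (2.30) and the survival gene Bcl2a1b (2.30), and 0 were lower by 1, with Ltb at -0.75. The list medians were 0.24 in CD8 and 1.06 in CD4 single cells. Those of the population libraries had the opposite order, 0.90 in CD8 and 0.35 in CD4. Immediate early genes, which follow many signals and also the handling of tissue, had medians of 1.07 in both cell types, with 13 of 24 higher by at least 1 in CD8 (Ppp1r15a 3.78, Junb 3.74) and 13 of 25 in CD4 (Ier2 3.64, Dusp1 2.07). These stand beside 5.94% and 7.73% of all genes. Of the 16 housekeeping genes, 11 were higher in KO by at least 1 in CD8 (median 1.58) and 6 in CD4 (median 0.87). Nothing particular to immediate early genes is therefore read from their counts. Dusp2 (-1.03) was lower by at least 1 in CD8, and the population medians of the immediate early list were 2.03 and 0.92. The part of immediate early genes in the inhibitor differences was not tested.

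Over cells within a group, the mean inhibitor level and the mean immediate early level had a Pearson r of 0.72, 0.56, 0.61 and 0.71 over the 67, 74, 79 and 78 cells. For the subunit mean the values were 0.60, 0.17, 0.26 and 0.09. Between the inhibitor mean and the mean housekeeping level r was 0.597, 0.125, 0.558 and 0.173. The genes of a cell share its library scale. Genes detected per cell had an r of 0.54, 0.15, 0.45 and 0.05 with the inhibitor mean. These are descriptions.

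For each inhibitor, the genes most like it were sought by the mean over the 4 groups of Pearson's r over cells, among the 3581 genes with a value in 20% or more of the cells of each group. For Nfkbia they were Tnfaip3 (0.40), Actg1 (0.39), Tmem123 (0.39), Il2rb (0.38) and Gapdh (0.37), beside a median of 0.12 over the 3581. For Nfkbid they were the orphan receptor gene Nr4a1 (0.42), Egr1 (0.33), Ier2 (0.30), Bcl2a1b (0.26) and Nfkbiz (0.26). Nfkbiz had Nfkbia (0.30), Gadd45b (0.30), Nr4a1 (0.28), Junb (0.27) and Zfp36 (0.26). Tnfaip3 had Junb (0.48), Ets1 (0.47), Laptm5 (0.45), Ifngr1 (0.44) and Vps37b (0.42). Each inhibitor but Tnfaip3 has another inhibitor in its list. The values are low, come from sparse data and share each cell's library scale.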

How the data were processed

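Single T cells and 4 population libraries were made with Smart-seq2 and 21 cycles of cDNA amplification, per the labels' protocols, which describe no molecular identifiers. The deposited values are FPKM, scaled by the authors with TMM factors per the labels. Per the submitters' processing notes Bowtie, RSEM and mm10 were used. The annotation was not given in the sources used here. RSEM estimates are shared between similar transcripts. Kept cells had at least 1000 genes above 0. Levels are means of log2(FPKM + 1), and differences between low values understate folds on that scale. With 1 sample per group there is no test and no p-value.

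Members and gene lists were chosen with earlier results of these data known. Of 205 list symbols 204 were matched, 2 under an older name. Named genes were all members, the 5 most alike per inhibitor, and in each pathway list the 2 genes with the highest and the 2 with the lowest KO minus WT difference. Il27ra, Cd4, Cd8a, B2m and Pmel served as checks.

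Depth was estimated from steps between low FPKM values with GENCODE M21 transcript lengths for 8994 genes with a single transcript. The share of low values within 0.1 of a whole read had a median of 64.1%, so no count test was run. On simulated data of 150 libraries the median ratio of estimated to true depth was 1.001. The simulation drew whole reads without TMM factors, so it does not show how near the estimates are for the deposited values. Of the table's library columns 0 were left unmapped. No doublet caller was run. Cells were in separate wells, which does not exclude RNA of another cell in a well. Coordinates are from GENCODE M21. Motifs were searched on both strands. Python 3.11.15, pandas 2.3.3, numpy 2.4.6 and scipy 1.17.1 were used.

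Alternatives covered the pseudocount, gene minimum, matching on genes detected, B2m and Cd3, other cells' markers, the mean scale and the population libraries. The cut on reads, thinning, the cut on B2m and Cd3 combined with matching, and both Foxp3 settings were added after the data were seen.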

Additional observations from a re-analysis of the deposited data

Results flagged for a closer look

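Some genes differed in sign under the same comparison, with small values among them, such as -0.14 and 0.09 for Rela in the population libraries. None of these differences could be tested, with 1 sample per group. Rela in single cells was at -0.11 for CD8 minus CD4 in WT and at 1.61 in KO. In the population libraries KO minus WT was 0.11 in CD8 and -0.31 in CD4 for Nfkb2, and 1.21 and -0.65 for Relb. CD8 minus CD4 in those libraries was -0.72 in WT and 0.59 in KO for Rel, and -0.14 and 0.09 for Rela.

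Among CD4 cells, KO minus WT differed in sign between cells with and without Foxp3 RNA for 4 genes. Tnfaip3 was at -2.06 with Foxp3 RNA and 2.15 without, Rela at -0.78 and 1.47, Rel at -0.48 and 1.79, and Nfkb1 at 0.28 and -0.075. The classes had 39 KO and 30 WT cells with Foxp3 RNA, and 39 and 49 without.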

How the results depend on the processing

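Values are medians of KO minus WT unless the index is named. No paired analysis was possible because no library number is shared between groups and no test was run. A value was counted as moved when it changed by over 1.5 times or, if under 1, changed sign, and as reversed when a value past 1 changed sign. In CD8, the subunits (1.07) were at 1.61 with a pseudocount of 0.1, 0.57 with 10 (inhibitors 1.27), 0.70 without cells lacking B2m or all Cd3 genes, 0.60 without cells with 3 markers of other types and 1.62 as log2 of mean FPKM (index -0.51). The index (0.82) was 0.45 when matched on genes detected and 0.46 when matched without the cells lacking B2m or all Cd3 genes, and the population inhibitors were at 1.28. In CD4, the subunits (0.66) were at 1.04 with a pseudocount of 0.1, 0.36 with 10 (inhibitors 1.33), 0.24 with at least 2000 genes, 0.22 with at least 200000 reads and 0.43 as log2 of mean FPKM (inhibitors 0.95). The CD4 population libraries gave 0.40, -0.31 and 0.41 for inhibitors, subunits and index. Reversed were the index for CD8 minus CD4 in WT (0.01 as log2 of mean FPKM), and in the population libraries Rela in CD8 (-0.20) and Nfkb2 in CD4 (-0.31). The CD8 index (-0.51) and Nfkbid in CD8 (-0.86 from 0.50) also changed sign as log2 of mean FPKM. The cause was not tested. Over all 23420 genes with no filter, 2.29% (CD8) and 2.7% (CD4) were higher in KO by at least 1, since genes found in few cells are then counted too. Over all 4 comparisons, 42 list values moved and 1 reversed. Of the shares of cells, 36 of 36 stayed inside their interval after thinning.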

Other observations

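Pairs of members were compared by the mean over the 4 groups of Pearson's r over cells, as a description of sparse values from shared libraries. The highest of the 36 pairs were Nfkbia with Tnfaip3 (0.40, range over groups 0.35 to 0.46), then Nfkb2 with Relb (0.33, 0.21 to 0.42), the subunits of the alternative dimer, and Nfkb2 with Nfkbia (0.32, 0.25 to 0.39). Nfkb2 and Relb were found together in 15 WT and 17 KO cells of the CD8 type, and in 20 WT and 27 KO CD4 cells. The median was 0.24 over 6 inhibitor pairs, 0.14 over 10 subunit pairs and 0.14 over 20 mixed pairs.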
